A study of Mus musculus with 8 samples.

Results

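A set of 10 genes of selective autophagy was followed in RNA sequencing libraries of mouse kidney cells: the cargo receptor genes Sqstm1, Nbr1, Optn and Calcoco1, the ATG8 family genes Map1lc3a, Map1lc3b, Gabarap, Gabarapl1 and Gabarapl2, and Tfeb, which encodes a transcription factor of lysosome and autophagy genes. They were taken by gene symbol from the deposited table, which holds all 10 of them among 22274 genes. The line is named RFB, and its labels give kidney as the tissue and fibroblast as the cell type. In 4 libraries (replicates 1 to 4) the treatment was TGF-β, a cytokine that drives matrix production, and in the other 4 it was TGF-β together with chaetocin. Chaetocin is a fungal compound used to inhibit histone H3 lysine 9 methyltransferases of the SUV39 family, and it also reacts with cellular thiols. All 8 libraries therefore carry TGF-β, and no value here describes TGF-β itself. The design text of the series names SUV39H1 knockdown cells, but the labels of these libraries give only the treatments. No source used here gives the dose, the time or whether the libraries are separate cultures. The p-values thus rest on the spread among 4 libraries a group, and that spread may be technical.

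Selective autophagy encloses chosen cargo, such as protein aggregates, damaged mitochondria or endoplasmic reticulum, in a double membrane that fuses with a lysosome. Cargo receptors bind the cargo, often through ubiquitin, and bind ATG8 proteins on the growing membrane. ATG8 proteins fall into the LC3 and the GABARAP subfamilies. ATG4 proteases trim each of them to end in a glycine, and a chain of conjugating enzymes then joins that glycine to phosphatidylethanolamine. In kidney tubule cells this system is known for clearing damaged organelles after injury. RNA levels do not measure the flow of cargo through it.

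The ATG8 genes share this processing step, and the ends of 4 of their coding sequences are shown because they carry it. Each line holds the last 36 bases including the stop codon, from the principal GENCODE M21 transcript on GRCm38, 5′ to 3′. Capitals mark the last codon of the form GGN, which encodes glycine.
Map1lc3a: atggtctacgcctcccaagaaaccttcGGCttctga
Gabarap: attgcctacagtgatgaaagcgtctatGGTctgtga
Gabarapl1: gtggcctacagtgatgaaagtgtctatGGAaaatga
Gabarapl2: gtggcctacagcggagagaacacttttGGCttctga
Over the coding bases that aligned without a gap, Map1lc3a and Map1lc3b were 77.5% identical and Gabarap and Gabarapl1 74.9%. Gabarapl2 was 64.6% identical to Gabarap and 64.9% to Gabarapl1. Pairs across the LC3 and GABARAP subfamilies were 54.4% to 61.0% identical. The longest run of identical aligned bases in any pair was 17, and no stretch of 50 bases was shared between transcripts of any pair of ATG8 genes.

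Read counts of the 10 genes ran from 170 for Tfeb to 36425 for Sqstm1, both in chaetocin libraries. Total counts per library ranged from 20135312 to 23664084 for TGF-β, and chaetocin replicate 1 had 22591935. Chaetocin replicates 2 to 4 were shallower, with 14421225 to 15084876 counts. Levels are given as CPM, read counts scaled by TMM to a common library size, and between genes as FPKM, the authors' deposited values scaled by length. How the FPKM were computed was not given, and they did not follow CPM at a fixed ratio per gene. Gabarapl1 had 58.0 CPM and 38.5 FPKM in chaetocin replicate 1, but 60.6 CPM and 34.7 FPKM in chaetocin replicate 3. Differences in FPKM between the groups thus need not equal differences in counts. Changes are log2 fold changes of TGF-β with chaetocin over TGF-β with their standard error, and adjusted p-values come from edgeR's quasi-likelihood F test with Benjamini-Hochberg adjustment over 14608 tested genes.

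The marker genes did not show a plain fibroblast profile. The summed level of 13 tubule epithelium markers was 3643 to 3805 CPM with TGF-β and 6748 to 7032 CPM with chaetocin, led by the keratin genes Krt8 and Krt18, although Slc34a1, Umod, Slc12a3 and Aqp2 stayed under 1 CPM in every library. Of these 13 markers 6 were called higher and 3 lower. Krt8 had 1582 ± 29.6 CPM (SD, n = 4) with TGF-β and 3615 ± 46.6 CPM with chaetocin. The sum of 10 fibroblast markers was 1435 to 1520 CPM with TGF-β and 507.5 to 649.7 CPM with chaetocin. Of these 1 was called higher and 5 lower. The sum was led by Vim and Col1a1, while Lum stayed under 1 CPM in every library. The sum of 8 macrophage markers was 283.8 to 314.0 CPM with TGF-β and 183.5 to 217.2 CPM with chaetocin, with 3 markers called higher and 5 lower. That of 5 endothelial markers was 50.8 to 57.2 CPM and 82.2 to 90.0 CPM, with 4 called higher and 1 lower. Members of each list thus moved in both directions. The part of these shifts in the changes of the 10 genes was not tested, and in bulk RNA fewer cells of a type and less RNA per cell cannot be told apart.

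All 10 genes passed the filter on low counts, and all 10 were called at an adjusted p under 0.05, 7 higher and 3 lower with chaetocin. In the same edgeR fit 80.7% of all tested genes were called, 42.0% higher and 38.8% lower, so being called does not set these genes apart. The changes were of ordinary size for this comparison: the median absolute log2 fold change was 0.41 over the 10 genes and 0.45 over all tested genes. Their median signed log2 fold change was 0.28, against 0.02 over all tested genes. Gabarapl2 and Calcoco1 stood at the ends, at a fold of 2.05 and 0.484, and the other 8 genes changed by less. In 9 of the 10 genes the CPM of the groups did not overlap (6 higher, 3 lower), and groups without overlap were found for 74.7% of all tested genes (39.0% higher, 35.7% lower). For log2 CPM an exact permutation test, two-sided, gave p = 0.0286 for those 9 genes, the smallest p that 4 libraries against 4 allow. Groups without overlap always give this p, so the test adds nothing to the lack of overlap.

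**Figure D1:**
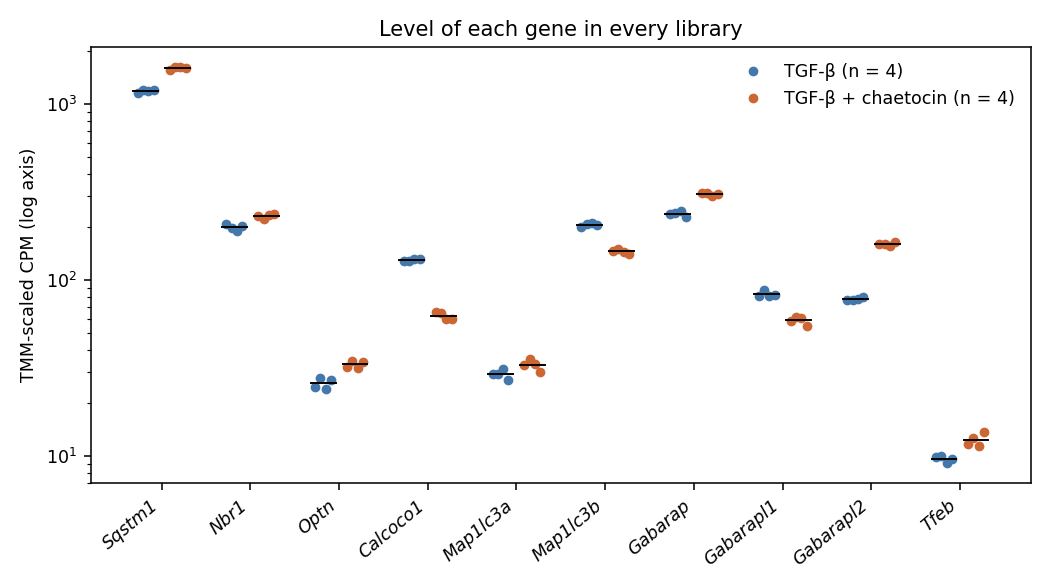
TMM-scaled CPM on a log axis for each of the 10 genes in each of the 8 libraries, with TGF-β libraries in blue, TGF-β and chaetocin libraries in orange and a black bar at each group mean. Calcoco1, Map1lc3b and Gabarapl1 lie lower with chaetocin, and in Map1lc3a the groups overlap.

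Sqstm1 encodes p62, a receptor that gathers ubiquitinated proteins into bodies and also binds KEAP1. The gene is on chromosome 11 from 50199366 to 50210827, minus strand (GRCm38, as for all positions of genes below). Its level was 1158, 1196, 1179 and 1197 CPM in the TGF-β libraries and 1556, 1618, 1620 and 1609 CPM in the chaetocin libraries. Every chaetocin library was above every TGF-β library. The mean went from 1183 ± 18.2 CPM (SD, n = 4) to 1601 ± 30.0 CPM, a log2 fold change of 0.44 ± 0.02 with an edgeR adjusted p of 6.4e-17. It was the most abundant of the 10 genes per length, at 548.9 ± 9.97 FPKM with TGF-β and 808.3 ± 17.0 FPKM with chaetocin, and 99.6% of tested genes had a lower FPKM with TGF-β. Its exons overlap those of Mrnip on the other strand over 580 bases, and the highest count of Mrnip in any library was 26.

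Nbr1 encodes a receptor with a domain layout like that of p62 that takes part in clearing aggregates and peroxisomes (chromosome 11, 101552149 to 101581951). Levels were 208.3, 196.8, 190.5 and 203.7 CPM with TGF-β and 229.8, 221.7, 232.8 and 236.9 CPM with chaetocin. The groups did not overlap, and the distance between the highest TGF-β library and the lowest chaetocin library was smaller than the range within either group. The log2 fold change was 0.20 ± 0.03 (edgeR adjusted p = 3.5e-07).

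Optn encodes optineurin, a receptor for ubiquitinated mitochondria and bacteria that is switched on through phosphorylation by TBK1 (chromosome 2, 5020642 to 5064051). Its 4 TGF-β libraries had 24.5, 27.5, 24.1 and 27.1 CPM and its 4 chaetocin libraries 31.8, 34.5, 31.5 and 34.2 CPM. The groups did not overlap, and the log2 fold change was 0.36 ± 0.06 (edgeR adjusted p = 1.7e-06).

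Calcoco1, the gene of a receptor for reticulum and Golgi membranes on chromosome 15 at 102706777 to 102722178, fell. Levels were 128.0, 128.0, 131.5 and 132.1 CPM with TGF-β and 65.5, 64.7, 60.1 and 60.2 CPM with chaetocin, so the TGF-β libraries agreed within a few CPM and all lay far above the others. The log2 fold change was -1.05 ± 0.03 (edgeR adjusted p = 9.7e-21), and 76.5% of all tested genes had a smaller absolute change. Calcoco1 was the 1 receptor gene of 4 that fell while the other 3 rose.

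Among the ATG8 genes 3 of 5 rose and 2 fell, with a rise and a fall inside each subfamily. Map1lc3a, an LC3 gene on chromosome 2 at 155276297 to 155278073, had 29.3, 29.2, 31.2 and 26.8 CPM with TGF-β and 32.8, 35.6, 33.3 and 29.8 CPM with chaetocin. Chaetocin replicate 4 lay below TGF-β replicate 3, so the groups overlapped. The log2 fold change was 0.18 ± 0.06 with an edgeR adjusted p of 0.00621, and the exact permutation test gave p = 0.0571 (0.0286 with total-count scaling). Of the 10 genes it had the smallest change.

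Map1lc3b encodes LC3B, the ATG8 protein most often used to mark autophagosomes (chromosome 8, 121590361 to 121598760). Its level was 199.7, 206.7, 209.6 and 205.0 CPM with TGF-β and 146.8, 150.0, 144.5 and 140.8 CPM with chaetocin. All chaetocin libraries were lower, by a log2 fold change of -0.50 ± 0.03 (edgeR adjusted p = 2.0e-15).

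Gabarap, the name gene of the other subfamily, lies on chromosome 11 at 69991143 to 69994951. Its TGF-β libraries had 237.8, 239.2, 245.8 and 227.3 CPM and its chaetocin libraries 311.1, 310.2, 301.6 and 309.4 CPM. The groups did not overlap, and the log2 fold change was 0.38 ± 0.03 (edgeR adjusted p = 2.4e-13).

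Gabarapl1, whose RNA is known to respond to FOXO factors in muscle, moved the other way (chromosome 6, 129533160 to 129542346). Levels were 81.2, 87.4, 81.3 and 82.4 CPM with TGF-β and 58.0, 61.8, 60.6 and 54.5 CPM with chaetocin. In CPM the groups were far apart, with a log2 fold change of -0.50 ± 0.04 (edgeR adjusted p = 4.7e-12). In FPKM they nearly met, with 43.0 in the lowest TGF-β library and 42.3 in the highest chaetocin library. Its exons overlap 570 bases of 1700101I11Rik, a transcript on the other strand that has no row in the table, and without stated strand counting reads there cannot be told apart.

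Gabarapl2, also called GATE-16 and first described in transport within the Golgi, had the largest rise of the 10 genes (chromosome 8, 111940703 to 111953612). Its 4 TGF-β libraries had 76.8, 77.2, 77.7 and 80.2 CPM and its 4 chaetocin libraries 160.0, 160.3, 155.0 and 164.8 CPM. The lowest chaetocin library lay far above the highest TGF-β library. The log2 fold change was 1.04 ± 0.03, a fold of 2.05, with an edgeR adjusted p of 6.9e-22. Stretches of 50 bases were compared with the transcripts of other genes on both strands. Of those in Gabarapl2 transcripts 12.2% also occur in 4 other genes, led by processed pseudogenes that have no row in the table. A part of the Gabarapl2 count is thus uncertain. The share was larger for Gabarapl1, at 23.1% with 1700101I11Rik, and for Sqstm1, at 15.5% with Mrnip. These partner genes lie on the other strand and overlap as given above, so these shares are not a separate observation. For Map1lc3b it was 6.01%, also led by processed pseudogenes, for Calcoco1 1.43% and for Optn 0.658%. For Gabarap, Map1lc3a, Nbr1 and Tfeb it was 0.

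Tfeb, the regulator among the 10 genes, was the least abundant of them (chromosome 17, 47737030 to 47792419). Levels were 9.83, 9.90, 9.04 and 9.59 CPM with TGF-β and 11.7, 12.6, 11.3 and 13.7 CPM with chaetocin, without overlap. The log2 fold change was 0.36 ± 0.08 (edgeR adjusted p = 3.8e-04). The activity of TFEB is set mainly by phosphorylation and its place in the cell, which RNA levels do not show.

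**Figure D2:**
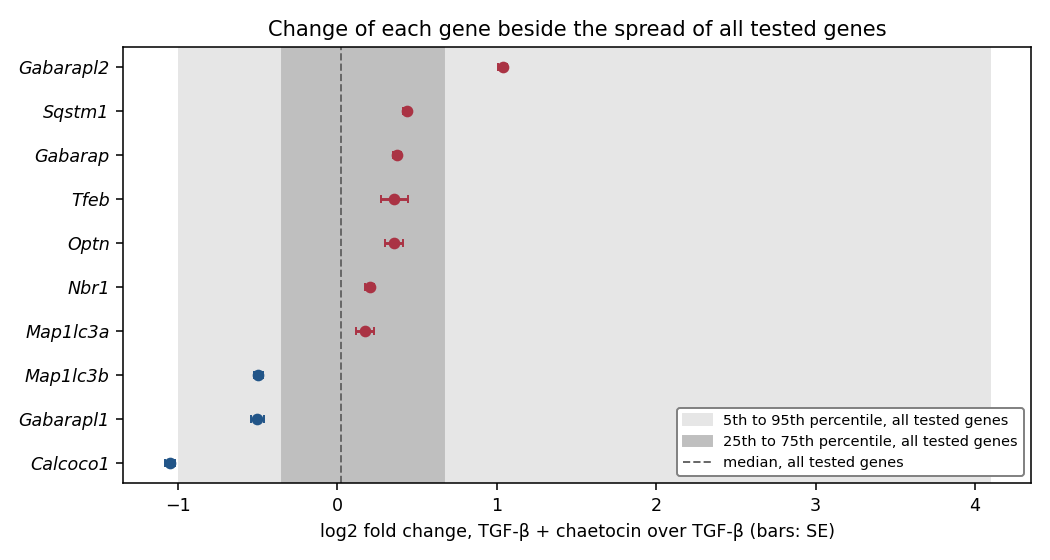
Log2 fold change of each of the 10 genes, TGF-β and chaetocin over TGF-β, with bars for the standard error. The light grey band runs from the 5th to the 95th and the dark grey band from the 25th to the 75th percentile of all 14608 tested genes, and the dashed line is their median of 0.02. Gabarapl2 at 1.04 is above the inner band, and Calcoco1 at -1.05 is just outside the outer band, whose lower end is -0.99.

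A test against a minimum fold separated the extremes from the rest. With edgeR's glmTreat and a fold of 1.5, Gabarapl2 (adjusted p = 1.6e-14) and Calcoco1 (adjusted p = 1.6e-13) were called and the other 8 genes had an adjusted p of 1. This setting called 33.2% of all tested genes, 23.0% higher and 10.2% lower. In the authors' deposited table the log2 ratio had the same sign as the count fit for all 10 genes, and the authors' FDR was under 0.05 for all 10. Sizes differed between the scales. The log2 ratio in the authors' deposited table was -0.25 for Map1lc3b and -0.25 for Gabarapl1, where the count fit gave -0.50 for each. For Tfeb it was 0.66, where the count fit gave 0.36. With total-count scaling in place of TMM the count fit gave -0.38, -0.39 and 0.47 for these genes in that order. The gaps were thus smaller without TMM.

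Because Gabarapl2 and Calcoco1 moved furthest in opposite directions, their promoter windows are shown. Each is the 250 bases before a RefSeq start on GRCm38.p6, 5′ to 3′ on the gene's strand, and lies at chr8:111940453-111940702 (plus strand) for Gabarapl2 and at chr15:102722179-102722428 (minus strand) for Calcoco1. Capitals mark matches to 8 motifs searched on both strands.
Gabarapl2: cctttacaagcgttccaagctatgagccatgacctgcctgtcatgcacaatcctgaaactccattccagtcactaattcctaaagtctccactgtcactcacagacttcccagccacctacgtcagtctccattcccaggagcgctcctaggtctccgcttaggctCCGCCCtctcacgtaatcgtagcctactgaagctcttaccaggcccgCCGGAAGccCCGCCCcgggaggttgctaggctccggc
Calcoco1: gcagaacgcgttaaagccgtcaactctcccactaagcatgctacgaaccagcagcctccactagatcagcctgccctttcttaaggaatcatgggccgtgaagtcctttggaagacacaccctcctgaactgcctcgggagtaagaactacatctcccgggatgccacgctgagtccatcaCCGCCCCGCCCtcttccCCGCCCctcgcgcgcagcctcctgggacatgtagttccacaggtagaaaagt
The motifs were chosen after the sequences were seen. The GC box GGGCGG, the letters bound by SP factors, occurs in 32.7% of 32851 mouse promoter windows of this length. It was matched 2 times in the Gabarapl2 window and 3 times in the Calcoco1 window, where 2 of the matches overlap. It was also matched in windows of Sqstm1, Optn, Map1lc3b, Gabarapl1 and Tfeb, so genes that rose and genes that fell both carry it. The ETS core CCGGAAG, in 6.91% of all windows, was matched only in the Gabarapl2 window, and the FOXO core TAAACA, in 12.0%, only in the Gabarapl1 window at -94 to -89. The promoter set used here held windows for 9 of the 10 genes, 12 windows in all. None of them held the antioxidant response core TGACNNNGC (10.2% of all windows), the E-box CACGTG (6.02%) or the CLEAR element that TFEB binds (0.240%). The cAMP response element TGACGTCA (1.55%) and the heat shock element (0.466%) were not matched in them either. Map1lc3a was not analysed in this respect.

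In deposited FPKM, the order of the 10 genes changed with chaetocin. With TGF-β, FPKM fell from Sqstm1 at 548.9 ± 9.97 over Gabarap at 172.3 ± 5.48 to Map1lc3b at 94.4 ± 4.68 (SD, n = 4). Gabarapl1, Nbr1, Calcoco1 and Gabarapl2 followed at 45.4, 44.9, 44.7 and 44.7 FPKM, and neighbours among these 4 overlapped over the libraries. Map1lc3a had 25.2 ± 1.58, Optn 9.63 ± 0.706 and Tfeb 4.13 ± 0.364 FPKM. With chaetocin Gabarapl2 moved from rank 7 to rank 3, at 99.2 ± 2.51 FPKM, and Calcoco1 from rank 6 to rank 8, at 23.2 ± 1.06 FPKM. The order was then Sqstm1, Gabarap, Gabarapl2, Map1lc3b, Nbr1, Gabarapl1, Map1lc3a, Calcoco1, Optn and Tfeb, and no neighbours overlapped. For 33 of the 45 pairs among the 10 genes the log2 ratio of counts did not overlap between the groups. The share over pairs of all tested genes was not computed, so this count does not set the 10 genes apart. A ratio of counts is free of library scaling, since both genes are read from the same library.

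The make-up of ATG8 RNA shifted toward the GABARAP subfamily. Summed over the 5 genes, the deposited FPKM went from 381.9 ± 11.5 (SD, n = 4) with TGF-β to 487.4 ± 9.96 with chaetocin. Each of the 5 genes had a higher log2 ratio in FPKM than in the count fit with TMM, so the size of this rise depends on the scale. Of the summed FPKM the 3 GABARAP genes made up 68.7% ± 0.753 with TGF-β and 77.4% ± 0.842 with chaetocin. The lowest chaetocin library, at 76.7%, was above the highest TGF-β library, at 69.8%.

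Gabarapl2 gained most, from 11.7% ± 0.472 to 20.4% ± 0.398 of the summed FPKM. Gabarap went from 45.1% ± 0.318 to 49.2% ± 0.702. Map1lc3b fell from 24.7% ± 0.538 to 16.3% ± 0.632 and Gabarapl1 from 11.9% ± 0.514 to 7.85% ± 0.492. Map1lc3a kept a share of 6.59% ± 0.260 and 6.31% ± 0.432, with overlapping groups. These shares are a description with no test, since the genes were chosen with results of these data known.

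**Figure D3:**
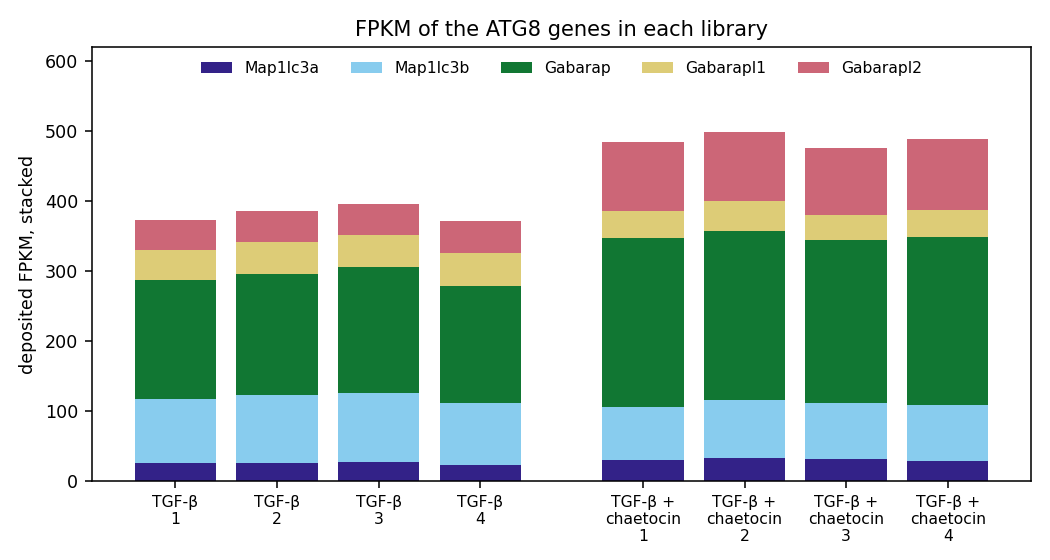
Deposited FPKM of the 5 ATG8 genes stacked in each of the 8 libraries. The stacks of the chaetocin libraries are taller, the Gabarapl2 segment is taller in each of them, and the Map1lc3b segment is shorter.

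Map1lc3b and Gabarapl1 fell side by side although they belong to different subfamilies. The log2 ratio of their counts was 1.31 ± 0.05 (SD, n = 4) in each group, with overlapping libraries. The FPKM ratio of Map1lc3b to Gabarapl2 went from 2.11 to 0.801, so these genes changed places, and that of Gabarapl1 to Gabarapl2 went from 1.02 to 0.385. The log2 ratio of Sqstm1 to Gabarap counts was 2.32 ± 0.06 with TGF-β and 2.38 ± 0.04 with chaetocin, with overlap. The most abundant receptor gene and the most abundant ATG8 gene thus kept their ratio within the spread of the libraries.

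The genes around them were taken from 7 lists, which together hold 154 tested genes. The lists hold few genes each and were not tested as sets. Counts are read against the 42.0% of all tested genes called higher and the 38.8% called lower. Scaling by total counts, without TMM, moves the median over all tested genes from a log2 fold change of 0.02 to 0.14 and the shares to 49.2% and 30.9%, so the split under that scaling stands beside each list.

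Autophagosome initiation and nucleation genes were called lower in 13 of 23 cases and higher in 7, with a median log2 fold change of -0.22 (11 lower and 10 higher with total-count scaling). Ulk1, the kinase that starts autophagy, had -0.99 ± 0.03, from 93.8 to 47.3 CPM (edgeR adjusted p = 7.5e-20). Wipi1, which reads the lipid PI3P on the forming membrane, had -0.75 ± 0.05. Becn1, a subunit of the lipid kinase complex that makes PI3P, rose by 0.43 ± 0.03 and Atg9b, a gene for a membrane protein of vesicles that seed the autophagosome, by 0.78 ± 0.04.

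Of 11 genes for the enzymes and partners that process and conjugate ATG8 proteins 2 were called higher, 4 lower and 5 neither way, and the median log2 fold change was -0.07 (2 higher and 1 lower with total-count scaling). Atg7, which activates ATG8 proteins, rose by 0.25 ± 0.06 and Atg3, which passes them to the lipid, by 0.17 ± 0.04. Atg16l2 fell by 0.74 on the log2 scale at 11.1 CPM with TGF-β. Atg12 had -0.17 ± 0.03 and was not called with total-count scaling (edgeR adjusted p = 0.0924).

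Other selective receptors, for mitochondria, endoplasmic reticulum, ribosomes and ferritin, were called higher in 8 of 22 cases and lower in 10, with a median of -0.00 (12 higher and 6 lower with total-count scaling). Among the receptors of the endoplasmic reticulum Atl3 had 0.53 ± 0.03 and Tex264 0.55 ± 0.04, while Ccpg1 had -0.92 ± 0.04. Wdfy3, a scaffold for aggregates that works with p62, had -0.44 ± 0.03. Calcoco2, the gene of the receptor NDP52, was read 0 times in all TGF-β libraries and 16 to 28 times in each chaetocin library. Its pooled 1.25 CPM with chaetocin was 35.0-fold above a floor of 3 counts over the TGF-β group. That fold leaves out the spread of the chaetocin counts. Calcoco2 passed the filter on low counts only through the chaetocin libraries, and it is among the 8 called higher. It is named here outside the rule for named genes, after its values were seen.

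Genes of fusion with the lysosome were called higher in 5 of 14 cases and lower in 6, with a median of -0.02 (7 higher and 4 lower with total-count scaling). Epg5, a tether, had 0.64 ± 0.03 and Snap29, a SNARE of the fusion complex, 0.50 ± 0.04. Stx17, the SNARE on the autophagosome, had -0.36 ± 0.04 and Vps41, a subunit of the HOPS tether, -0.56 ± 0.03.

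Lysosomal genes (hydrolases, membrane proteins and the proton pump) were called higher in 13 of 44 cases and lower in 24, with a median of -0.14 (18 higher and 17 lower with total-count scaling). The pump subunit gene Atp6v1h had 0.90 ± 0.04. Lgmn, a protease, had -0.89 ± 0.03 and Psap, the precursor of the saposins, -0.55 ± 0.02.

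Around Tfeb, the list of its relatives and of mTORC1, folliculin and calcineurin genes had 9 of 28 genes called higher and 16 lower, with a median of -0.16 (10 higher and 14 lower with total-count scaling). Rheb, which switches mTORC1 on, had 0.70 ± 0.03 and Deptor, an inhibitor of mTORC1, 1.07 ± 0.06. Rragc, which brings mTORC1 to the lysosome, had -0.34 ± 0.03 and Prkaa2, a catalytic subunit of AMPK, -0.77 ± 0.05. Of the close relatives of Tfeb, named after their values were seen, Mitf had a log2 fold change of 1.64 and Tfe3 of 0.21, while Tfec had -0.10 ± 0.18 and was not called (edgeR adjusted p = 0.62).

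Partners and kinases of the receptors were called higher in 2 of 12 cases and lower in 8, with a median of -0.16 (4 higher and 5 lower with total-count scaling). Tbk1, which phosphorylates optineurin and p62, had 0.31 ± 0.04 and Prkci, an atypical protein kinase C that binds p62, 0.33 ± 0.03. Ripk1, a signalling kinase that p62 and optineurin contact, had -0.69 ± 0.04, and Myo6, a motor that binds optineurin and NDP52, -0.44 ± 0.03.

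**Figure D4:**
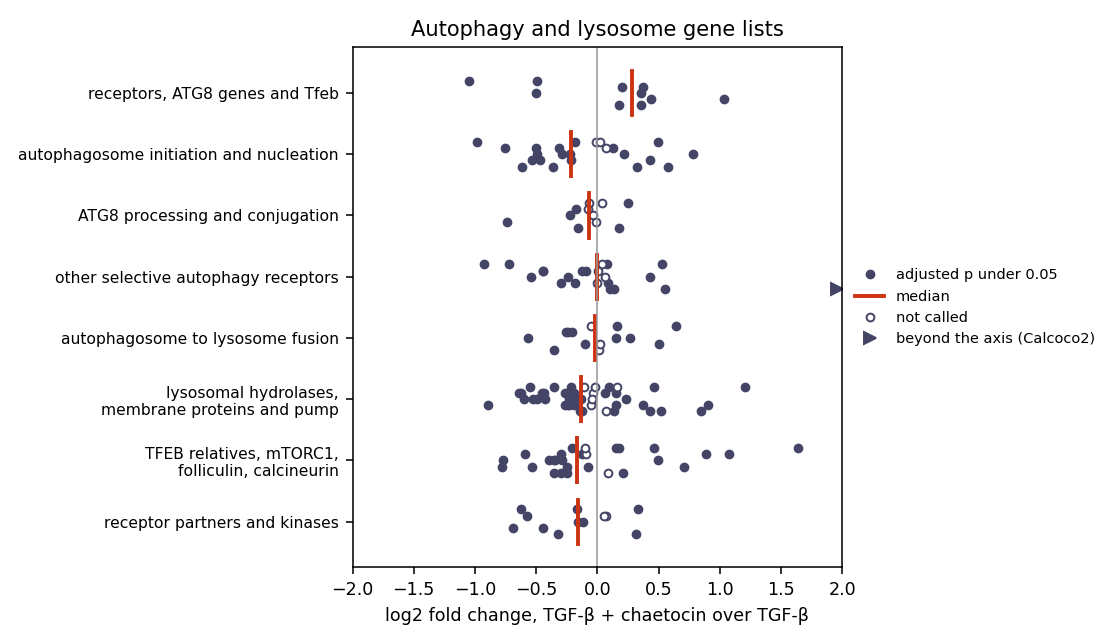
Log2 fold change of each gene of the 7 lists and of the 10 receptor, ATG8 and Tfeb genes in the top row, with filled points for genes called at an edgeR adjusted p under 0.05, open points for the rest and a red bar at each median. The median of the top row is 0.28, and those of the 7 lists lie between -0.22 and -0.00; the triangle marks Calcoco2 beyond the axis.

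The deposited KEGG annotation gave a further set of neighbours, looked up after the table was seen. Of 135 tested genes of its animal autophagy pathway 44 (32.6%) were called higher and 73 (54.1%) lower, against 42.0% and 38.8% of all tested genes. The median log2 fold change was -0.14 (53 higher and 58 lower with total-count scaling), and 5 of the 10 genes are in this pathway. Of 71 tested mitophagy genes 33 (46.5%) were called higher and 27 (38.0%) lower. Their median was 0.05 (40 higher and 21 lower with total-count scaling), and 8 of the 10 genes are in the mitophagy pathway. Sqstm1, Gabarap, Gabarapl1, Gabarapl2 and Map1lc3a are in both pathways. Map1lc3b and Calcoco1 are in neither, so the deposited annotation leaves out an LC3 gene.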

How the data were processed

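The labels' protocols name an RNeasy kit for extraction and a SMARTER kit for mRNA libraries, and the submitters' processing notes name GRCm38 (mm10). The aligner, the counter, the annotation and the strand setting were not given in the sources used here. The deposited table holds, per the file headers, raw read counts and FPKM per gene and library, the log2 ratio of mean FPKM, and a p-value and FDR from an unnamed test. Columns of other samples numbered 0.

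Counts were fitted with edgeR 4.0.16 in R 4.3.3 (filterByExpr, TMM, glmQLFit and glmQLFTest, treatment only), and p-values were adjusted by Benjamini-Hochberg over 14608 genes. Genes were called at an adjusted p under 0.05. The script was tested on simulated data with few changed genes, balanced in direction, unlike these data. That test does not bear on TMM scaling where most genes are called. Replicate numbers were not used as pairs in this fit, and same-numbered libraries did not deviate together. Deposited FPKM were used for levels between genes and for ATG8 shares. GENCODE M21 gave coordinates and coding sequences, and RefSeq gave promoters.

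The members and gene lists were chosen with earlier results of these data known. From each of the 7 lists the text names the 2 called genes with the smallest p in each direction, and a few items are not reported here. Alternatives used limma 3.58.1 and DESeq2 1.42.0.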

Additional observations from a re-analysis of the deposited data

How the results depend on the processing

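Under 18 alternatives, which were other scalings and filters, DESeq2, limma on FPKM, a replicate block, a minimum fold and each library left out, the 10 genes kept their direction in all 180 values and their call in 172. The other 8 were the genes other than Gabarapl2 and Calcoco1 under glmTreat with a fold of 1.5. That setting called 4849 genes in all, 1 of the 10 genes higher and 1 lower, 1 higher and 2 lower among initiation genes, 0 and 0 among conjugation genes, 1 and 2 among other receptors, 1 and 0 among fusion genes, 3 and 1 among lysosomal genes, 3 and 1 among the relatives and regulators of Tfeb, and 0 and 1 among receptor partners. Total-count scaling called 1 conjugation gene and 6 other receptors lower, and 4 partners higher and 5 lower. Limma on log2(FPKM + 1), on log2(FPKM + 0.1) and without a filter gave those same 4 counts, and 3 fusion genes lower. Without a filter on counts 5 other receptors were called higher. The share of GABARAP genes rose by 8.67 percentage points of summed FPKM and by 11.7 points of summed counts. Leaving out each library in turn gave 11568 to 11953 called genes and always 7 of the 10 genes higher and 3 lower, and the highest adjusted p was 0.0481, for Map1lc3a. Same-numbered libraries did not deviate together (correlations of -0.0134 to 0.0318), and with the replicate number as a block 11748 genes were called, with 7 and 3 of the 10. Depth limits Tfeb most, which had the lowest counts. Doses, times and cultures are not given, and marker genes of several cell types moved with the treatment.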
